A study of Mus musculus with 4 samples.

Results

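Bone morphogenetic proteins (BMPs), growth and differentiation factors (GDFs) and activins are secreted dimers of the TGF-beta superfamily. They bind pairs of type I and type II receptor kinases on the cell surface. BMPs and several GDFs then act through Smad1, Smad5 and Smad9, whereas activins and myostatin act through Smad2 and Smad3. Noggin and gremlin bind BMPs outside the cell and keep them from their receptors. In mesenchymal cells these ligands are known for roles in bone, cartilage, joint, fat and muscle formation, and myostatin is a brake on muscle growth. The expression of 10 genes of this group was examined: Bmp2, Bmp4, Bmp6, Bmp7, Gdf5, Gdf6, Mstn (myostatin), Inhba (the activin A subunit), Grem1 (gremlin 1) and Nog (noggin). They were chosen by gene name among the 21878 genes of the mRNA data, with the FPKM values of all their 21 RefSeq transcripts summed per gene. FPKM is a fragment count scaled for transcript length and library size, so levels can be compared between genes.

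The cells were C3H10T1/2, an established mouse mesenchymal stem cell line with multipotent properties. There were 2 untreated samples, named replicates 1 and 2, and 2 samples given 5-AZA, named replicates 101 and 102. 5-AZA, or 5-azacytidine, is a nucleoside that blocks DNA methyltransferases once built into DNA. It was given at 20 μM for 72 hours, after which the cells had 21 days in fresh medium. How long the untreated cells were kept is not given in the sources used here, so the treatment and the time in culture cannot be told apart. Whole cultures were sequenced, and a change in the share of a cell type cannot be told apart from a change of RNA per cell. The samples of a group are called biological repeats, but whether they came from separate cultures is not given, so p-values measure only the spread between these 4 samples, which may be technical.

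The steps of the circRNA values put each library at 92903364 to 93920706 reads, but FPKM keeps no counts per gene and the depth behind each value is unknown. Of 13199 genes with a mean of at least 0.1 FPKM, 1724 were called higher and 174 lower after 5-AZA (limma on log2(FPKM + 0.1), Benjamini-Hochberg adjusted p below 0.05 and over 2-fold). After quantile normalization the calls were 1041 higher and 886 lower. The median log2 difference over all genes tested was 0.05, and -0.12 after quantile normalization. None of 16 housekeeping genes was listed at 0 in any sample. The 8 fibroblast and mesenchymal markers had summed levels of 2906 and 2999 FPKM in the untreated and 1914 and 2111 FPKM in the 5-AZA samples. Most of this sum was Vim, at 2268 and 2406 against 1178 and 1380 FPKM, while the median log2 difference of the list was 0.28, and Thy1 was called higher, at 0.578 and 0.785 against 10.4 and 14.2 FPKM. The defining immune markers Adgre1 and Cd3e were at 0 in all samples.

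Grem1, the antagonist, and the ligand genes Bmp6, Gdf5 and Mstn were called higher after 5-AZA, which makes 4 of the 10 genes. No gene of the 10 was called lower (limma). Without 5-AZA replicate 101, and likewise without 102, Grem1, Bmp6 and Gdf5 lost their calls. Mstn kept its call there, but the only spread left was between its untreated values, both at 0. Without adjustment, 5 of the 6 genes tested had a p-value below 0.05 in the upward and 0 in the downward direction (limma). No share over all genes was taken for such unadjusted counts, here or below, so they are a description. Bmp4, the most abundant of the ligands, had a smaller difference that did not reach 2-fold, and Inhba did not pass the test. Gdf6 and Nog were detected only in the 5-AZA samples, below the limit for testing, and Bmp2 and Bmp7 were listed at 0 throughout. Over all genes tested, 13.1% were called higher and 1.32% lower. Only 6 of the 10 genes passed the limit on low values. Bmp6, Gdf5 and Mstn passed it through the 5-AZA samples, so they had to differ in order to be tested, and their count is a description. Of all 1724 genes called higher, 825 had an untreated mean below 0.1 FPKM in the same way.

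**Figure D1:**
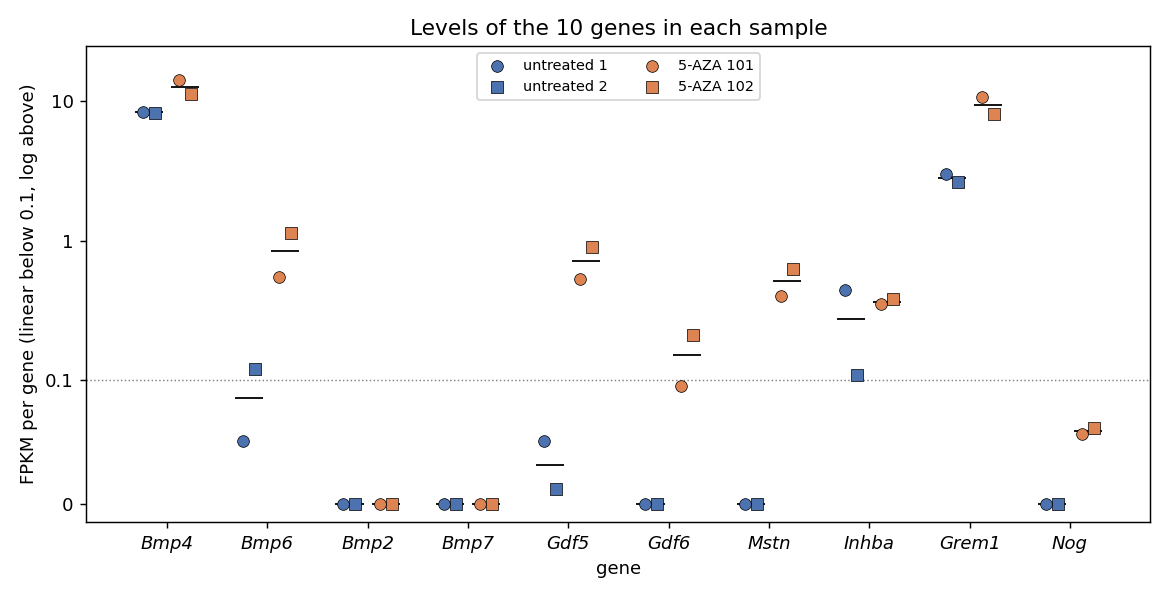
FPKM per gene (linear below 0.1, logarithmic above) for the 10 genes, with untreated samples in blue, 5-AZA samples in orange and group means as black lines. Grem1, Bmp6, Gdf5, Mstn, Gdf6 and Nog lie higher in both 5-AZA samples, Bmp4 differs by less than 2-fold, Inhba overlaps, and Bmp2 and Bmp7 are at 0.

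Grem1 encodes gremlin 1, a secreted antagonist of the DAN family that binds BMP2, BMP4 and BMP7. Its level was 3.03 and 2.63 FPKM in the untreated samples and 10.7 and 8.08 FPKM in 5-AZA replicates 101 and 102. Both 5-AZA values lay above both untreated values, which held for 36.8% of all genes tested, while 25.4% had both 5-AZA values below both untreated values. The group means were 2.83 ± 0.282 and 9.40 ± 1.86 FPKM (SD, n = 2 each), a ratio of 3.32. On the log2(FPKM + 0.1) scale the difference was 1.68 (standard error 0.19, 95% interval 1.26 to 2.11, adjusted p = 2.37e-04, limma). Without 5-AZA replicate 101 the difference was 1.48 (adjusted p = 0.067, limma) and without replicate 102 it was 1.89 (adjusted p = 0.0516, limma). With only 3 samples the lone 5-AZA sample is assumed to vary like the untreated ones. The transcript NM_011824.4 made up 88.7% to 99.5% of the Grem1 sum in the 4 samples, and it was called by itself (log2 difference 1.72, adjusted p = 0.0392, limma over 35557 transcripts).

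Bmp4 encodes a BMP that acts on mesoderm, bone and fat precursors, and it was the most abundant of the 10 genes in every sample. It was at 8.41 and 8.24 FPKM in the untreated samples and at 14.1 and 11.3 FPKM in the 5-AZA samples, without overlap. The log2 difference was 0.60 (standard error 0.15, 95% interval 0.26 to 0.93, adjusted p = 0.0174, limma), below the 2-fold required for a call. Of all genes, 18.6% were higher at an adjusted p below 0.05 at any size of difference. Over the 13 alternatives tried it ran from 0.43 to 1.10, with adjusted p-values from 0.0119 to 0.173. Grem1 stood at 36 and 32 percent of the Bmp4 level in the untreated samples and at 75.7 and 71.6 percent in the 5-AZA samples. This ratio of antagonist to ligand RNA was given as a description and was not tested.

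The 6 transcripts of Bmp4 differ in how the sum was divided. The predicted XM_006518467.3 was at 1.17 and 3.38 FPKM in the untreated samples and at 5.79 and 1.81 FPKM in the 5-AZA samples, so replicates differed more than groups. NM_007554.3 was at 1.77 and 0.996 FPKM against 1.39 and 3.59 FPKM. The curated NM_001316360.1 was at almost 0 and at 0.0164 FPKM in the untreated samples and at 0.550 and 0.992 FPKM in the 5-AZA samples (adjusted p = 0.0988, limma). It held 3.89 and 8.80 percent of the gene sum after 5-AZA. Since these transcripts overlap, the division of reads among them is an estimate, and none of the 6 was called (limma). Before adjustment XM_011244934.2 and NM_001316360.1 had p-values of 0.0258 and 0.00465 (limma).

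**Figure D2:**
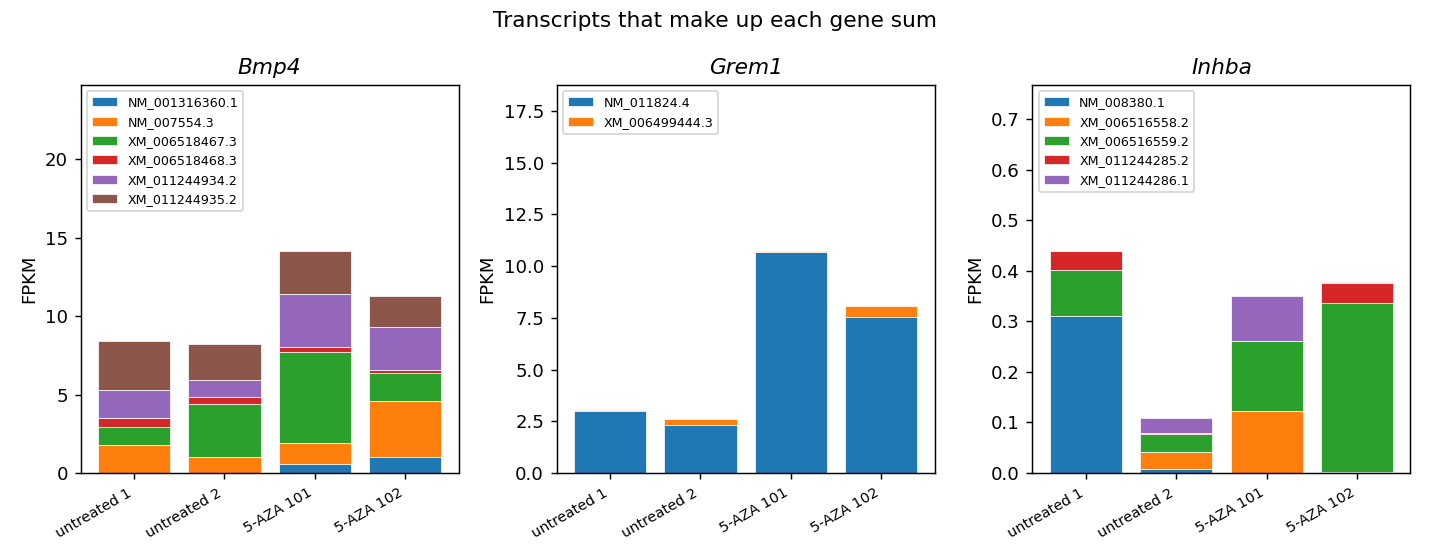
Stacked bars of FPKM per transcript (vertical axis, separate scale per panel) for Bmp4, Grem1 and Inhba in the 4 samples. The sum of Grem1 rests on NM_011824.4 in every sample, while the parts of Bmp4 and of Inhba change between replicates of a group.

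Bmp6 encodes a BMP known for roles in bone, cartilage and iron balance. It was at 0.0510 and 0.120 FPKM in the untreated samples and at 0.550 and 1.13 FPKM in the 5-AZA samples. The groups did not overlap, and the means were 0.0853 ± 0.0485 and 0.840 ± 0.410 FPKM (SD, n = 2 each), with replicate 102 the higher of the 5-AZA samples. The log2 difference was 2.30 (standard error 0.41, adjusted p = 0.00393, limma). The call was lost without 5-AZA replicate 101 (2.76, adjusted p = 0.0695, limma), without replicate 102 (1.84, adjusted p = 0.108, limma) and after quantile normalization (1.09, adjusted p = 0.0776, limma). With a pseudocount of 1 FPKM it fell below 2-fold (0.74), and without the limit on low values its adjusted p was 0.0879 (limma).

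Gdf5 encodes a ligand of joint, cartilage and tendon development. Its level was 0.0509 and 0.0122 FPKM in the untreated and 0.532 and 0.905 FPKM in the 5-AZA samples. Both 5-AZA values were far above the untreated ones, and the means were 0.0316 ± 0.0274 and 0.718 ± 0.264 FPKM (SD, n = 2 each). The log2 difference was 2.61 (standard error 0.39, adjusted p = 0.00145, limma). Without 5-AZA replicate 101 it was 2.95 (adjusted p = 0.0514, limma), and without replicate 102 it was 2.28 (adjusted p = 0.0685, limma). With a pseudocount of 1 FPKM it fell below 2-fold (0.73). Gdf6, the close relative of Gdf5 in sequence and in joint formation, was listed at 0 in both untreated samples and at 0.0950 and 0.209 FPKM in the 5-AZA samples. It lay outside the fit, and no fold is given against a group at 0.

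Mstn encodes myostatin, a ligand made mainly by skeletal muscle that limits muscle mass. It was listed at 0 in both untreated samples and at 0.397 and 0.625 FPKM in 5-AZA replicates 101 and 102. It was called higher (adjusted p = 0.00150, limma). Mstn kept its call without 5-AZA replicate 101 and without replicate 102, where the only spread left was between untreated values both at 0. Those fits therefore cannot show whether the call is stable. The size of the Mstn difference depends on the pseudocount, so no fold is given, and with a pseudocount of 1 FPKM it stayed below 2-fold. Bmp6, Gdf5 and Mstn each have 1 transcript in the files. When transcripts were tested in place of genes, these same values had adjusted p-values of 0.185, 0.130 and 0.127 (limma), and Grem1 alone of the 10 genes was called. In that fit 2.1% of transcripts were called higher.

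Inhba encodes the beta-A subunit that forms activin A. It was at 0.438 and 0.108 FPKM in the untreated and at 0.349 and 0.378 FPKM in the 5-AZA samples. The groups overlapped, and the untreated samples spanned the wider range. The log2 difference was 0.47 (95% interval -0.60 to 1.54, adjusted p = 0.525, limma), with -0.22 without untreated replicate 2. Its curated transcript NM_008380.1 held 70.9% of the sum in untreated replicate 1 and 7.10% in replicate 2, and it was almost at 0 in both 5-AZA samples, where XM_006516559.2 held 40.0% and 88.1%. These parts of the sum rest on levels below 0.4 FPKM.

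Nog encodes noggin, which binds BMPs and closes their receptor sites. It was listed at 0 in both untreated samples and at 0.0566 and 0.0608 FPKM in the 5-AZA samples. These values are close to those of the immune marker genes Ptprc, at 0.0631 and 0, and Itgam, at 0.0748 and 0.0146 FPKM, in the same 5-AZA samples. Bmp2 and Bmp7, classical inducers of bone formation, were listed at 0 in all 4 samples. With 2 samples against 2, an exact two-sided permutation test over samples cannot give a p-value below 0.333, and each of the 10 genes whose groups did not overlap had this value.

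The order of the levels changed little at the top. In the untreated samples Bmp4 was followed by Grem1, then by Inhba and Bmp6, whose values overlapped, and by Gdf5, which was level with Bmp6 in replicate 1 (0.0509 and 0.0510 FPKM) and below it in replicate 2 (0.0122 and 0.120 FPKM). In the 5-AZA samples Bmp4 and Grem1 again came first, and Bmp4 was higher than Grem1 within each sample. Bmp6, Gdf5 and Mstn followed with overlapping ranges, then Inhba, below the lowest value of Mstn, and then Gdf6 and Nog. Among all genes above 0, Bmp4 stood at percentiles 61.7 and 62.5 in the untreated and 76.7 and 70.0 in the 5-AZA samples, and Grem1 at 41.2 and 40.4 against 70.8 and 62.6. Bmp6 reached only percentiles 28.7 and 33.2 after 5-AZA, and Mstn 26.5 and 28.8. The terms listed by the authors beside the values place 8 of the 10 genes in growth factor activity, all but Grem1 and Nog, and all 10 in extracellular space.

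DNA methylation in mammals lies mostly on CG dinucleotides. The sequence before the gene start was compared for the 5 of the 10 genes found in the RefSeq promoter table (GRCm38.p6), which are Bmp4, Bmp6, Grem1, Inhba and Mstn. The 250 bases before the start are shown 5′ to 3′ for the called genes among them and for Bmp4, with every CG in capitals, because they differ widely in CG number. DNA methylation itself was not measured in these files.
Grem1 (chr2:113758649-113758898, minus strand): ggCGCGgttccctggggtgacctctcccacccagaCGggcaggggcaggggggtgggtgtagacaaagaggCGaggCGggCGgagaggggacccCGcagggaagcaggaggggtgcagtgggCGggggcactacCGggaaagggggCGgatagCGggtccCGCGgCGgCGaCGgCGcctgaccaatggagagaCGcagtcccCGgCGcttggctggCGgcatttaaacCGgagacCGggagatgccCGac
Bmp6 (chr13:38345466-38345715, plus strand): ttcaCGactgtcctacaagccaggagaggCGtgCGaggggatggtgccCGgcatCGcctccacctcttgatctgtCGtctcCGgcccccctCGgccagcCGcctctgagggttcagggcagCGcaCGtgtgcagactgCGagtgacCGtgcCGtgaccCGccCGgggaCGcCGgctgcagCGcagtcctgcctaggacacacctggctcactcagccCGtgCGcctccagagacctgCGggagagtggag
Bmp4 (chr14:46390670-46390919, minus strand): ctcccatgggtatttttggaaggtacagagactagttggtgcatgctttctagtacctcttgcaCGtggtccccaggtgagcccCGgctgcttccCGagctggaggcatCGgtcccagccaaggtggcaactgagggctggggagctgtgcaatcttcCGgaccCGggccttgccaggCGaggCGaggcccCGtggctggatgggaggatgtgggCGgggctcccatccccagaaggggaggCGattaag
Mstn (chr1:53061390-53061639, plus strand): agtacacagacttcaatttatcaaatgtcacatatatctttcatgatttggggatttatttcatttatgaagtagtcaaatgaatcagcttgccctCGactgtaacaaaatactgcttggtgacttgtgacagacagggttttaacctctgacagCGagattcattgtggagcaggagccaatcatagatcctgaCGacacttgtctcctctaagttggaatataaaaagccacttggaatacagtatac

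The Grem1 window holds 24 CG dinucleotides, Bmp6 22 and Bmp4 11, whereas Mstn and Inhba hold 3 each. The median over 32851 windows of this length was 6, and the 5 members stood at percentiles 88.0, 85.2, 64.4, 29.0 and 29.0. Among these 5 windows the called genes Grem1 and Bmp6 had the most CG, and the called Mstn had as few as the uncalled Inhba. Gdf5, the other called gene, has no window here, and a link between CG number and the calls was not tested. The E-box, CANNTG, which the myogenic factors MyoD and myogenin can bind, was searched on both strands and occurs 4 times before Mstn, 3 times before Bmp4, 2 times before Bmp6 and not before Grem1 or Inhba, and 66.2% of all windows hold it. TATAAA, searched likewise, is present before Mstn and Inhba and in 12.4% of all windows. CAGAC, a Smad-type motif that was searched on both strands, occurs 2 times before Mstn, once before Bmp6 and Grem1, and in 42.2% of all windows. GGCGCC was also searched and occurs once before Grem1, not before Bmp4, Bmp6, Inhba or Mstn, and in 9.59% of all windows. These matches describe letters in the windows and were tied to no binding.

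The lncRNA values come from the same libraries. Within 5 kb of 7 of the 10 genes 30 lncRNA transcripts are listed, of which 15 were at 0 in all samples and 3 reached 1 FPKM in any sample. NONMMUT039150.2, of 2757 bases and 2 exons, lies on the same strand as Grem1 and overlaps the gene. It was at 5.31 and 3.29 FPKM in the untreated samples and at 16.6 and 16.9 FPKM in the 5-AZA samples, without overlap and in the same direction as Grem1. NONMMUT039151.2, which also overlaps Grem1 on its strand, was at 0.174 and 0.0698 against 0.315 and 0.213 FPKM. Reads from bases that these lncRNAs share with Grem1 cannot be assigned to either from these values.

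NONMMUT011473.2, which lies 163 bases outside Nog, was listed at 0 in both untreated samples and at 0.0987 and 0.112 FPKM in the 5-AZA samples. Like Nog it was above 0 in both 5-AZA samples only. At Inhba, NONMMUT016470.2 overlaps the gene on the plus strand and was at 0.986 and 0.683 against 1.02 and 0.992 FPKM, a small difference beside the spread of the untreated samples. On the strand opposite to Bmp4, NONMMUT020598.2 was above 0 in 5-AZA replicate 101 only, at 0.304 FPKM, and NONMMUT020599.2 was at 0.0368 and 0.0286 against 0.0305 and 0.0857 FPKM, with overlap. None of these lncRNA values was tested. No circRNA among the 4295 listed has one of the 10 genes as its host.

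**Figure D3:**
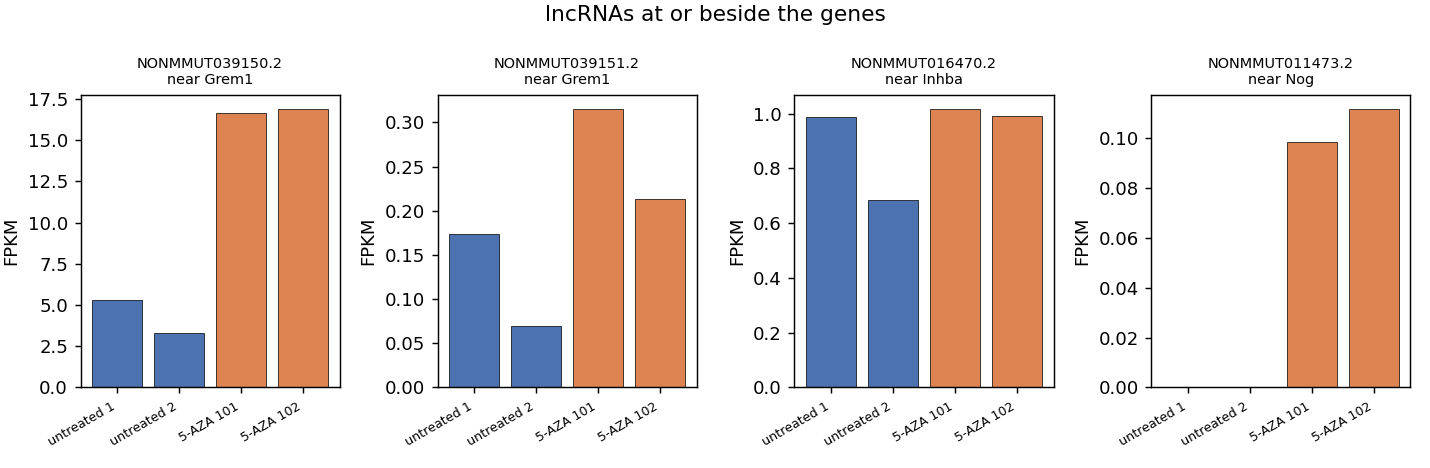
FPKM (vertical axis from 0, separate scale per panel) of 4 lncRNAs at or beside Grem1, Inhba and Nog, with untreated samples in blue and 5-AZA samples in orange. NONMMUT039150.2 at Grem1 is near 17 FPKM in both 5-AZA samples, above 5.31 FPKM in the untreated ones, and the lncRNA beside Nog is at 0 in both untreated samples.

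The other genes of the pathway were followed by their roles in 6 lists with 81 genes, of which 61 were tested, 16 were called higher and none lower (limma), beside 13.1% higher and 1.32% lower over all genes tested. After quantile normalization 7 of them were called lower, where the calls over all genes went from 174 to 886 lower. Most of the called genes were other ligands, receptors, co-receptors and extracellular antagonists, while no Smad gene passed both limits of a call. Of 20 other ligands 9 were tested, with 3 called higher (1 without 5-AZA replicate 101 or 102) and a median log2 difference of 0.22, and 2 of those called had an untreated mean below 0.1 FPKM. Gdf15, a stress-induced distant member of the superfamily, was at 0.0345 and 0.351 FPKM in the untreated and at 6.27 and 7.41 FPKM in the 5-AZA samples. Its log2 difference was 4.81 (standard error 0.49, adjusted p = 1.49e-04, limma), and 4.93 and 4.69 without 5-AZA replicates 101 and 102 (adjusted p = 0.123 and 0.129, limma). Without the limit on low values its adjusted p was 0.0615 (limma). The others, named after their values were seen, were Bmp5 and Gdf7, both listed at 0 in the untreated samples and at 0.127 to 0.493 FPKM in the 5-AZA samples. Gdf11, the nearest relative of Mstn, was at 11.3 and 10.7 against 12.2 and 13.4 FPKM (log2 difference 0.22, 95% interval -0.07 to 0.50, adjusted p = 0.254, limma). The inhibin and activin subunit genes Inhbb and Inha had log2 differences of 0.73 and 0.07 (adjusted p = 0.0994 and 0.907, limma).

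Among 14 receptors and co-receptors 13 were tested, with 4 called higher (2 without 5-AZA replicate 101 or 102) and a median log2 difference of 0.26, and 2 of those called had an untreated mean below 0.1 FPKM. Bmpr1a, a type I receptor of BMPs, was at 63.3 and 61.2 FPKM in the untreated and at 59.8 and 59.2 FPKM in the 5-AZA samples. Its log2 difference was -0.06 (95% interval -0.28 to 0.15, adjusted p = 0.671, limma). The type II receptor gene Bmpr2 differed by -0.10 (95% interval -0.35 to 0.15, adjusted p = 0.555, limma). The activin and myostatin receptor genes Acvr2a and Acvr2b differed by 0.10 and -0.65 (adjusted p = 0.711 and 0.174, limma), and Acvr2b was called lower after quantile normalization at -1.80. Hfe2, which encodes the BMP co-receptor hemojuvelin of muscle and liver, was listed at 0 in both untreated samples and at 3.62 and 5.39 FPKM in the 5-AZA samples (adjusted p = 5.52e-06, limma). Acvrl1, a type I receptor known from endothelium, rose from 0.186 and 0.129 to 1.57 and 1.87 FPKM (log2 difference 2.83, adjusted p = 1.76e-04, limma). The receptor gene Acvr1c, named after its values were seen, was at 0 and 0.00417 against 0.240 and 0.210 FPKM (adjusted p = 0.0161, limma). Tgfbr3, or betaglycan, was at 6.02 and 5.43 against 11.8 and 12.3 FPKM, with a log2 difference of 1.06 (adjusted p = 5.45e-04, limma). The Tgfbr3 difference fell below 2-fold after centring on the sample medians (0.96) and after quantile normalization (0.97). It also did so with a pseudocount of 1 FPKM (0.96) and without untreated replicate 2 (0.99). Its adjusted p was 0.0666 and 0.0728 without 5-AZA replicates 101 and 102 (limma).

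None of the 8 Smads and Smad ubiquitin ligases was called (limma), whereas 1 was called higher with NM_ transcripts alone and without 5-AZA replicate 101, and 1 lower after quantile normalization. Smad3, which carries activin and myostatin signals, was at 7.43 and 7.69 FPKM in the untreated and at 13.3 and 15.5 FPKM in the 5-AZA samples. Its log2 difference of 0.92 (adjusted p = 0.0012, limma) was below 2-fold, and the gene is named after its values were seen. Before adjustment, 2 had a p-value below 0.05 with a higher and 1 with a lower level. Smad1 and Smad5, the transducers of BMP signals, had log2 differences of 0.16 and 0.11 (95% intervals -0.15 to 0.48 and -0.13 to 0.34, adjusted p = 0.449 and 0.523, limma). Of 13 early target genes 11 were tested and 1 was called higher. Before adjustment, 4 of them had a p-value below 0.05 with a higher and 1 with a lower level (limma). Bambi, named after its values were seen, was at 4.58 and 4.69 against 2.23 and 2.99 FPKM. Its log2 difference of -0.82 (adjusted p = 0.0162, limma) was below 2-fold. Id1 was at 51.8 and 41.3 against 41.0 and 40.2 FPKM, and the log2 differences of Id1, Id2 and Id3, immediate targets of BMP signals, were -0.19, -0.21 and 0.14 (adjusted p = 0.324, 0.231 and 0.477, limma). The inhibitory Smad genes Smad6 and Smad7 differed by 0.14 and 0.63 (adjusted p = 0.562 and 0.0703, limma). Pmepa1, a target of TGF-beta and activin signals, was called at 0.592 and 0.511 against 1.28 and 1.30 FPKM (log2 difference 1.10, adjusted p = 0.0145, limma). It was no longer called in 8 of the 12 alternatives that tested it, among them the omission of untreated replicate 2 (1.01, adjusted p = 0.0673, limma) and of 5-AZA replicates 101 (1.11, adjusted p = 0.0943, limma) and 102 (1.09, adjusted p = 0.103, limma).

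The list of other extracellular antagonists and modulators had 15 of 20 genes tested, with 8 called higher, none lower and a median log2 difference of 1.33, against 0.05 over all genes. Of the genes tested, 3 had an untreated mean below 0.1 FPKM and passed the limit through the 5-AZA samples, and 2 of them were among those called, so the count and the median are a description. Without 5-AZA replicates 101 and 102 the calls in this list were 5 and 3. Bmper, which binds BMPs and modulates them, was at 2.52 and 1.63 FPKM in the untreated and at 14.8 and 17.4 FPKM in the 5-AZA samples. Its log2 difference was 2.92 (standard error 0.21, adjusted p = 2.09e-05, limma), and 3.04 and 2.81 without 5-AZA replicates 101 and 102 (adjusted p = 0.070 and 0.0768, limma). Fst encodes follistatin, which binds activins and myostatin, and it was at 7.02 and 6.37 against 22.5 and 27.3 FPKM. Its log2 difference was 1.87 (standard error 0.14, adjusted p = 2.14e-05, limma). Smoc1, an inhibitor of BMP signals, was at 1.34 and 1.10 against 3.76 and 7.19 FPKM (log2 difference 2.01, adjusted p = 0.00136, limma), and at 2.47 and 1.55 without 5-AZA replicates 101 and 102 (adjusted p = 0.0504 and 0.0849, limma). The other genes called, named after their values were seen, were Chrdl1, Fstl3, Nbl1, Sostdc1 and Wfikkn2. The list also held genes without a call, such as Fstl1 at 1157 and 1268 against 1132 and 1194 FPKM. At an unadjusted p below 0.05, 9 genes of this list had a higher and 2 a lower level (limma). Twsg1, named after its values were seen, was at 40.3 and 37.0 against 27.2 and 30.5 FPKM. Its log2 difference of -0.42 (adjusted p = 0.0225, limma) was below 2-fold. Quantile normalization led to 1 gene of the antagonist list being called lower. In the list of proprotein convertases and BMP1 proteinases, which process the ligands, 0 of 5 genes tested were called (limma). Before adjustment, 1 had a p-value below 0.05 with a higher and 0 with a lower level. After quantile normalization 1 gene of this list was called lower.

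**Figure D4:**
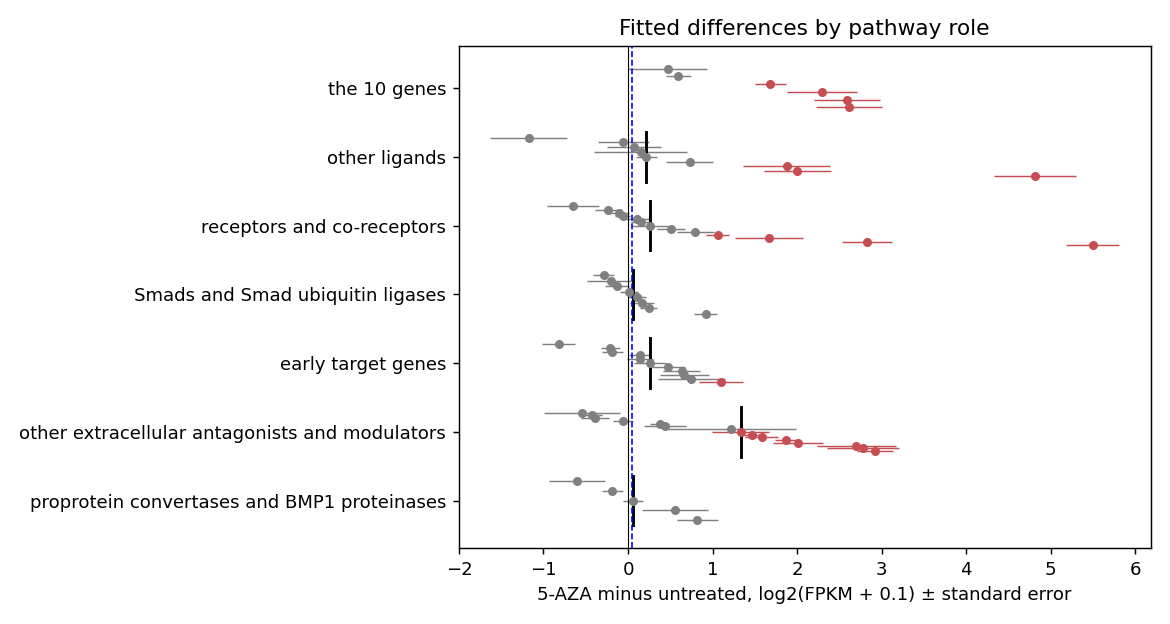
Log2 difference of log2(FPKM + 0.1), 5-AZA minus untreated, with its standard error, for each tested gene by role, where red marks genes called higher, black ticks the median of a list and the blue dashed line the median of all genes. No gene of the Smad list is called, with Smad3 the highest at 0.92, and 8 of 15 other antagonists are called, while the positions of genes at 0 in the untreated samples, such as Mstn and Hfe2, depend on the pseudocount.

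Markers of several cell types moved with the treatment beside these genes. The 10 skeletal muscle markers had summed levels of 1.44 and 1.01 FPKM in the untreated and 721 and 1117 FPKM in the 5-AZA samples. All 8 tested were called higher, beside 13.1% higher and 1.32% lower over all genes tested. Of these 8, 5 had an untreated mean below 0.1 FPKM and passed the limit through the 5-AZA samples, so the count is a description. Myog, the gene of the muscle regulator myogenin, was at 0.0806 and 0.101 against 33.0 and 52.4 FPKM, and Myod1 at 0 and 0 against 0.512 and 1.23 FPKM, while Myf5 and Myf6 were at 0 throughout. For 6 adipocyte markers the sums were 47.7 and 32.7 against 1092 and 1497 FPKM, with 5 called higher (2 without 5-AZA replicate 101 or 102) and none at 0. For 6 chondrocyte markers they were 118 and 105 against 20.2 and 31.2 FPKM, with 4 called lower, among them Col2a1 at 67.5 and 57.1 against 4.13 and 6.84 FPKM. In the same list Comp was called higher, at 1.17 and 1.12 against 3.02 and 4.41 FPKM, though not without 5-AZA replicate 102 (adjusted p = 0.0739, limma). The tenocyte and joint markers went from 155 and 159 to 29.2 and 35.0 FPKM. Most of the untreated sum was Tnmd, which was called lower, at 127 and 130 against 7.46 and 6.99 FPKM. In this list Osr2 was called higher, at 0.719 and 0.410 against 1.48 and 2.00 FPKM, though not after quantile normalization. The part of these cell types in the levels of Grem1, Bmp6, Gdf5 and Mstn was not tested.

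Osteoblast markers had sums of 141 and 131 against 446 and 387 FPKM, with Bglap and Spp1 called higher and Ibsp at 0. Bglap passed the limit on low values through the 5-AZA samples. Spp1 alone was at 133 and 123 against 437 and 377 FPKM. Runx2, a master regulator of osteoblasts, was at 8.06 and 8.28 against 5.19 and 5.32 FPKM, a log2 difference of -0.63 (adjusted p = 0.0111, limma) that was not called. Endothelial markers had sums of 0.303 and 0.234 against 2.98 and 2.19 FPKM, with Kdr and Tie1 at 0. Emcn, at 0.0953 and 0.0447 against 2.24 and 1.67 FPKM, and Cdh5, at 0 and 0.00622 against 0.484 and 0.211 FPKM, were called higher, 2 of 4 tested, and both passed the limit on low values through the 5-AZA samples. The part of endothelial cells in the level of Acvrl1 was not tested. Immune markers had sums of 1.16 and 1.47 against 2.41 and 3.70 FPKM, carried by Cd68. Within the 5-AZA pair, replicate 102 had the higher levels of Bmp6, Gdf5, Gdf6 and Mstn, and replicate 101 those of Bmp4 and Grem1. Replicate 102 also had the higher sums of 6 of the 8 marker lists, all but the osteoblast and endothelial ones, and of all genes (361664 against 328410 FPKM).

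**Figure D5:**
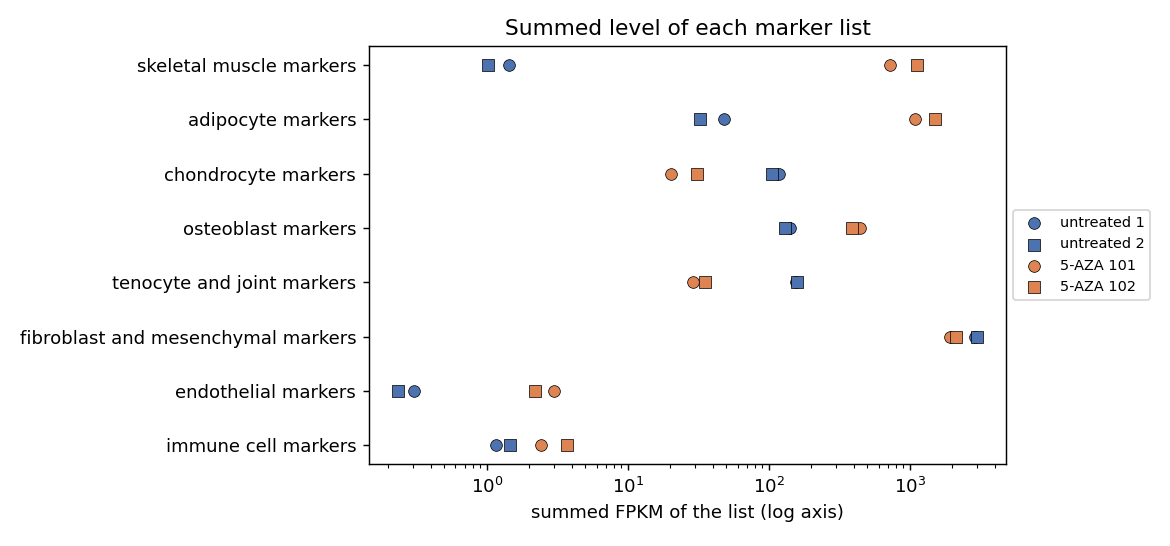
Summed FPKM (horizontal log axis) of 8 marker lists in the 4 samples, with untreated samples in blue and 5-AZA samples in orange. Muscle and adipocyte sums are higher, and chondrocyte and tenocyte sums lower, in both 5-AZA samples. Most of the tenocyte and joint sum in the untreated samples is Tnmd.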

How the data were processed

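RNA of 2 untreated and 2 5-AZA treated C3H10T1/2 samples was compared, grouped by the treatment label. Per the labels, libraries were depleted of ribosomal RNA and stranded; whether counting used strand is not given in the sources used here. The submitters' processing notes list Trimmomatic, HISAT2, Bowtie2 2.2.9 and eXpress 1.5.1, and the build mm9, although 85.9% of 2356 host transcripts of circRNAs lie within the GRCm38.p6 gene of the same name. The authors deposited FPKM per transcript for mRNAs and lncRNAs and RPM per circRNA. RPM values were whole multiples of a step (100% within 0.01), from which library totals were taken, and no circRNA was tested.

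Transcripts were summed per gene, and limma 3.58.1 (lmFit, eBayes with trend, R 4.3.3) was fitted to log2(FPKM + 0.1) of genes with a mean of at least 0.1 FPKM, with Benjamini-Hochberg adjustment over all genes. A gene was called at an adjusted p below 0.05 and over 2-fold. The added 0.1 makes the differences of low genes too small. The paper names a count test, which FPKM does not allow. The fit was tested on data simulated from its own estimate of the spread. This checks the steps of the fit and cannot show whether the calls hold in these samples. Named genes are the 10 members, 17 fixed genes and up to 3 higher and 3 lower genes per list with the largest change. Their samples must not overlap between the groups, and the higher group must reach 1 FPKM. Members and lists were chosen with earlier results of these data known. Alternatives covered pseudocount, limit on low values, scaling, trend, transcripts and each sample left out. Promoters come from RefSeq. The gene Hjv was matched under its older symbol Hfe2. No sample column was left unused.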

Additional observations from a re-analysis of the deposited data

How the results depend on the processing

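With 2 samples per group, the number of samples and the unknown depth of FPKM limit every result, and low levels rest on the pseudocount. No paired analysis was possible because the groups share no replicate numbers. Of all genes, 875 were called higher and 86 lower with a pseudocount of 1 FPKM, 845 higher with a limit of 1 FPKM, 83 lower without a limit, and 1041 higher and 886 lower after quantile normalization. With each sample left out the calls ran from 733 to 1617 higher and from 52 to 184 lower. Of the 10 members, 4 were called higher, and 1 (Grem1) with a pseudocount of 1 FPKM, with a limit of 1 FPKM (fewer genes tested) and with single transcripts. Without 5-AZA replicate 101 or 102 the calls of Grem1, Bmp6 and Gdf5 were lost. Mstn kept its call there, with both untreated values at 0 as the only spread left. Of the pathway genes 16 were called higher. This was 8 with a pseudocount of 1 FPKM and with a limit of 1 FPKM, 9 without a limit and after quantile normalization, which called 7 lower, and 6 to 13 with each sample left out. The cause of these shifts was not tested. Differences that changed sign were small or uncalled. They were Inhba (-0.77 after quantile normalization, -0.22 without untreated replicate 2, and 1.16 without replicate 1), Bmpr1a (0.0237 with NM_ transcripts), Smad5 (-0.0019 after centring) and Inhbb (-0.34 after quantile normalization). Acvr2a turned to -0.0031 after centring, -0.01 after quantile normalization, -0.0045 without untreated replicate 1 and -0.0171 without 5-AZA replicate 102, with up to 0.22 in the other omissions. Inha turned to -0.0371 after centring, -0.74 after quantile normalization, -0.36 without untreated replicate 1 and -0.01 without 5-AZA replicate 102, with up to 0.50 in the other omissions. Inha was called higher with NM_ transcripts (1.62). No alternative called a member lower.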
